A study of Mus musculus with 9 samples.

Results

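The MHC class I genes described here were 10 of the 27998 genes in the single-cell table: the heavy chains H2-K1, H2-D1 and H2-T23, the light chain B2m, the peptide loading genes Tap1, Tap2 and Tapbp, the immunoproteasome subunits Psmb8 and Psmb9, and the transactivator Nlrc5. They were given as a list of names, with no threshold on a measured value, by a choice made with earlier results of these data known. The data were 1 library, made with the droplet method of 10x Genomics, of cells from mouse ascites, the fluid that gathers in the abdomen, with the genotype label B6_WT and the tumor line ID8_def29_vegf in the title. ID8-Def29/Vegf is a mouse ovarian cancer line derived from C57BL/6 cells and made to express Defb29 and Vegf, and the labels of the ascites library give no treatment and no number of mice. The series also holds bulk libraries of the cultured line, 4 given vehicle and 4 given the iron chelator deferiprone for 12 h. The 8 columns of the bulk table have names that match no sample label, so they were not used here, and nothing below bears on deferiprone.

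MHC class I molecules show peptides from inside a cell to CD8 T cells, and their absence is read by natural killer cells. Proteasomes cut proteins into peptides, the TAP transporter (Tap1 and Tap2) moves the peptides into the endoplasmic reticulum, and tapasin (Tapbp) holds the heavy chain with B2m at the transporter until a peptide is bound. Interferons raise most genes of the pathway, exchange constitutive proteasome subunits for Psmb8, Psmb9 and Psmb10, and act in part through NLRC5, which works at a conserved stretch of class I promoters.

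Each cell was placed by marker genes other than these 10. Of the 6442 cells that passed the filters, 3660 were tumor-like (keratin, Wt1 and Upk3b transcripts, few C1q transcripts), 1076 were macrophages (C1q transcripts), 530 were dendritic cells (DC, at least 1% of transcripts from MHC class II genes), 102 were B cells and 25 were T cells. The rules overlapped for 40 cells, and 1089 cells met none. Checked on markers outside the rules, 7 macrophage markers such as Csf1r and Lyz2 summed to 50866 CPM (UMIs scaled to a common total per class) in macrophages, 9555 in T cells, 5276 in B cells, 1670 in DC and 192 in tumor-like cells. Their part in the class I levels of the T and B classes, given below, was not tested. The 8 DC markers summed to 266 CPM in DC, 209 in T cells, 8.40 in macrophages and 6.65 in tumor-like cells. In the DC class, Flt3 was at 38.5 CPM and Cd209a at 91.9, while Zbtb46 was at 6.21, near the 4.95 of tumor-like cells. Monocyte markers (Ly6c2, Ccr2 and Plac8) summed to 764 CPM in DC and 205 in macrophages. Plac8 was higher in DC (630 against 35.2) and Ccr2 lower (120 against 166). The part of monocyte-like cells in the DC levels was not tested. The tumor-like class had all 7 epithelial or mesothelial markers, with Epcam at 1.20 CPM, and the rule cannot tell the implanted line from host mesothelial cells. Leukocyte markers (Ptprc, Coro1a and Laptm5) summed to 6.95 CPM in tumor-like cells and to 680.0 in macrophages. Median depth was 5007 unique molecular identifiers (UMIs, counted transcripts) per tumor-like cell, 1639.5 per macrophage, 1380.5 per DC, 785.5 per B cell and 792 per T cell. The estimated part of a class's UMIs that was free RNA, caught in a droplet from outside the cell, was 4.99% or 9.62% in tumor-like cells, by the profile of barcodes of 1 to 50 or of 100 to 200 UMIs. By the same pair of profiles it was 13.9% or 13.4% in macrophages, 24.9% or 23.5% in DC, 53.6% or 45.1% in B cells and 18.9% or 15.6% in T cells.

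In the annotation of the C57BL/6 genome (GENCODE release M21, GRCm38), 8 of the 10 genes lie on chromosome 17: Tapbp at chr17:33915899-33929292, H2-K1 at chr17:33996017-34000347, Psmb9 at chr17:34181987-34187764, Tap1 at chr17:34187553-34197225, Psmb8 at chr17:34197721-34201454, Tap2 at chr17:34203527-34216321, H2-D1 at chr17:35262730-35267499 and H2-T23 at chr17:36029773-36032855. B2m is at chr2:122147686-122153083 and Nlrc5 at chr8:94434356-94527272. Each is a protein-coding gene. Heavy chain genes resemble each other, which matters for a count from the 3' end of transcripts. Of 411 windows of 90 bases in the last 500 bases of the longest coding transcript, none of H2-K1 or of H2-D1 was found unaltered in a transcript of another gene. For H2-T23, 55 windows (13.4%) were shared, in part with the pseudogene H2-T-ps, so H2-T23 counts are less certain than those of H2-K1 and H2-D1.

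RefSeq promoter windows (GRCm38.p6, 250 bases before the transcript start to 50 after) were found for 8 of the 10 members, with none for Tap2 and Nlrc5. They are shown for H2-K1, H2-D1 and B2m, the chains of the classical molecule, for the shared Tap1 and Psmb9 window, and for Tapbp, the one member not higher in macrophages and DC than in tumor-like cells. Those of Psmb8 and H2-T23, also higher in both classes, are not printed and hold no TGACG. The windows of H2-D1, Tapbp, Psmb8 and Psmb9 lie wholly inside the GENCODE spans of these genes. Bases before the outermost annotated start of these genes were not searched, so a motif missing from such a window may still lie there. Capitals mark matches, on either strand, to 4 short motifs: CCAAT (NF-Y), TGACG (part of the site of ATF and CREB factors), GAAANNGAA (interferon response) and GGGATTCC (an NF-κB type site). No match overlaps another.
H2-K1, chr17:34000298-34000597, minus strand: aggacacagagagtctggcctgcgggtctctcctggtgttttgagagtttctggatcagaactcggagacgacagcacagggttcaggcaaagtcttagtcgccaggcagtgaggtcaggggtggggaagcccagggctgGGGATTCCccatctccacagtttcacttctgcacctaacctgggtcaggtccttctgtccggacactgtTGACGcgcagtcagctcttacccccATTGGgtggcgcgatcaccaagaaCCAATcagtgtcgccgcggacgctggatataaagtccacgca
H2-D1, chr17:35262844-35263143, plus strand: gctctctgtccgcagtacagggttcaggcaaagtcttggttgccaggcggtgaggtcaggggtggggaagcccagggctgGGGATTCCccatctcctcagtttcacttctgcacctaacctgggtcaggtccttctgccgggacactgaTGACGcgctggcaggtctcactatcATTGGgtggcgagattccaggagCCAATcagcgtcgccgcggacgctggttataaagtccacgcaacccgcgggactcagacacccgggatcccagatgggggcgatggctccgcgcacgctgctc
B2m, chr2:122147437-122147736, plus strand: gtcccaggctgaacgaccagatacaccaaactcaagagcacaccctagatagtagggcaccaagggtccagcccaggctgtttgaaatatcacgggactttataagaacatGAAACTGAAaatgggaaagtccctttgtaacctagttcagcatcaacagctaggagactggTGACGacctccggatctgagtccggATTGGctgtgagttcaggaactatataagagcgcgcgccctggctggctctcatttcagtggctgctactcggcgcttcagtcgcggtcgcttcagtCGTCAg
Tap1, chr17:34187306-34187605, plus strand: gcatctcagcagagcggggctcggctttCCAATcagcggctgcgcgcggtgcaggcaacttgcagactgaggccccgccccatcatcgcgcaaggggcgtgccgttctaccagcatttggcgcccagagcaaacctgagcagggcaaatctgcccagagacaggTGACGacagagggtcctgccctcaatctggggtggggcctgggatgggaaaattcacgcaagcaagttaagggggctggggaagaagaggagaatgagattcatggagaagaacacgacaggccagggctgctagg
Tapbp, chr17:33919228-33919527, plus strand: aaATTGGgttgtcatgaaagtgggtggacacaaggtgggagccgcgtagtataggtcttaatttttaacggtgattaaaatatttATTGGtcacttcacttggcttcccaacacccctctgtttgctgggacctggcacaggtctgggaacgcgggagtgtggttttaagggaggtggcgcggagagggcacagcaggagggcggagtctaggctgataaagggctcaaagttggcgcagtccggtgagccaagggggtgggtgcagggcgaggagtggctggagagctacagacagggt

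CCAAT was present in 7 of the 8 windows and in 37.4% of all 32851 RefSeq promoter windows of that length. TGACG was present in 5 of 8 (H2-K1, H2-D1, B2m, Tap1 and Psmb9) and in 20.8% of all windows. GAAANNGAA was present in B2m and H2-T23 and in 8.56% of all windows. GGGATTCC was present in H2-K1 and H2-D1 and in 1.06% of all windows. The Tap1 and Psmb9 windows share 275 bases, since the genes are read in opposite directions from neighboring starts. Their CCAAT and TGACG matches are the same sites in these shared bases, so the counts of windows above hold each of these sites for both genes. In H2-K1, H2-D1 and B2m alike, a CCAAT read on the other strand began 25 bases after the first base of a TGACG. This pair at this spacing was found in 31 of all windows (0.0944%). GGGATTCC stood 69 bases before TGACG in both H2-K1 and H2-D1. The spacing was looked for after the matches had been seen. The Psmb8 window held none of the 4 motifs. These are matches of letters, not measured binding.

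The first comparison asks in which cells of the ascites the class I genes were transcribed. H2-K1, H2-D1 and B2m were lowest in tumor-like cells and about 7 to 25 times higher in macrophages and DC. Psmb8 and Psmb9 were higher in DC than in macrophages, B cells and tumor-like cells, while the wide T cell intervals took in those of DC. Tapbp was the one member that was not higher in macrophages or DC than in tumor-like cells. Values are CPM of all UMIs of a class, with exact 95% Poisson intervals that cover counting error only. There was 1 library, so no test between groups can be made.

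H2-K1 and H2-D1 are the classical heavy chains of this strain, the ones that present peptides to CD8 T cells. H2-K1 was at 46.9 CPM (44.0 to 50.01) in tumor-like cells, 438 (408 to 468) in macrophages, 359 (319 to 403) in DC, 259.8 (179 to 365) in B cells and 584 (319 to 980) in T cells. H2-D1 was at 44.8 CPM (41.9 to 47.8) in tumor-like cells, 1139 (1092 to 1188) in macrophages, 720.3 (663 to 781) in DC, 394 (292 to 519) in B cells and 835 (510 to 1289) in T cells. For both genes the tumor-like interval lay below those of the other 4 classes, and the T cell interval overlapped that of macrophages. The excess of H2-D1 over H2-K1 differed between classes: the ratio of H2-D1 to H2-K1 UMIs was 0.954 (0.870 to 1.05) in tumor-like cells, 2.60 (2.40 to 2.82) in macrophages and 2.01 (1.74 to 2.32) in DC.

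B2m, the light chain that every class I heavy chain needs, was at 264 CPM (257 to 271) in tumor-like cells, 2975 (2898 to 3053) in macrophages, 1842 (1749 to 1938) in DC, 1598 (1386 to 1834) in B cells and 2796 (2167 to 3550) in T cells. The order was the same as for H2-D1, with macrophages and T cells not separated and DC and B cells not separated. B2m transcripts were found in 66.1% (64.5 to 67.6%) of tumor-like cells, 93.4% (91.7 to 94.8%) of macrophages and 88.9% (85.9 to 91.4%) of DC. With every cell thinned to 500 UMIs, the shares were 12.5% (11.5 to 13.6%), 71.5% (68.7 to 74.2%) and 56.4% (52.1 to 60.7%). Free RNA would give 20.9 CPM of B2m in tumor-like cells by the barcodes of 1 to 50 UMIs and 44.1 by those of 100 to 200, less than the 264 measured. For H2-K1 and H2-D1 in tumor-like cells the same 2 estimates were 3.91 and 3.92 CPM, and 8.32 and 6.40 CPM, also less than measured.

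H2-T23 encodes the heavy chain of Qa-1, a nonclassical molecule read by NKG2A receptors. It was at 19.4 CPM (17.5 to 21.4) in tumor-like cells, 43.5 (34.7 to 54.0) in macrophages, 42.2 (29.2 to 59.0) in DC and 86.6 (43.2 to 155) in B cells. Macrophages and DC did not differ beyond counting error. T cells held no H2-T23 UMI, which allows up to 125 CPM at their depth, so no order can be given for them.

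Tap1 and Tap2 form the peptide transporter. Tap1 was at 3.25 CPM (2.51 to 4.14) in tumor-like cells, 17.3 (11.9 to 24.3) in macrophages and 28.6 (18.1 to 42.9) in DC. Tap2 was at 6.10 CPM (5.07 to 7.29) in tumor-like cells, 16.3 (11.1 to 23.1) in macrophages and 26.1 (16.1 to 39.9) in DC. These 2 genes were thinly covered: B cells had 1 UMI of each and T cells had 0. Tapbp, the tapasin that bridges heavy chain and transporter, went the other way. It was at 122 CPM (117.3 to 127) in tumor-like cells, 76.1 (64.2 to 89.5) in macrophages, 98.1 (77.7 to 122) in DC, 55.1 (22.2 to 114) in B cells and 83.5 (10.1 to 301) in T cells. In B cells free RNA alone would give 43.7 or 25.9 CPM of Tapbp, both inside that interval, so the B cell level cannot be told from background. Against the heavy chains of the same cells, Tapbp had 1.33 UMIs (1.25 to 1.42) per UMI of H2-K1 and H2-D1 in tumor-like cells, 0.0483 (0.0406 to 0.0570) in macrophages and 0.0909 (0.0713 to 0.115) in DC.

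Psmb8 and Psmb9 are catalytic subunits of the immunoproteasome. Psmb8 was at 38.1 CPM (35.4 to 40.9) in tumor-like cells, 236 (215 to 259) in macrophages, 459.5 (414 to 509) in DC, 149.6 (90.1 to 234) in B cells and 376 (172 to 713) in T cells. Psmb9 was at 11.9 CPM (10.4 to 13.5) in tumor-like cells, 82.9 (70.5 to 96.9) in macrophages, 174 (146 to 205) in DC, 70.9 (32.4 to 135) in B cells and 41.7 (1.06 to 232) in T cells. DC stood above macrophages for both genes, with intervals that do not overlap. Nlrc5, the class I transactivator, had only 15 UMIs in all kept cells: 4 in tumor-like cells, 8 in macrophages, 2 in DC and 1 in cells of no class. That is 0.200 CPM (0.0545 to 0.512), 4.198 (1.81 to 8.27) and 2.48 (0.301 to 8.97) in the 3 classes, too few for more than a value.

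**Figure D1:**
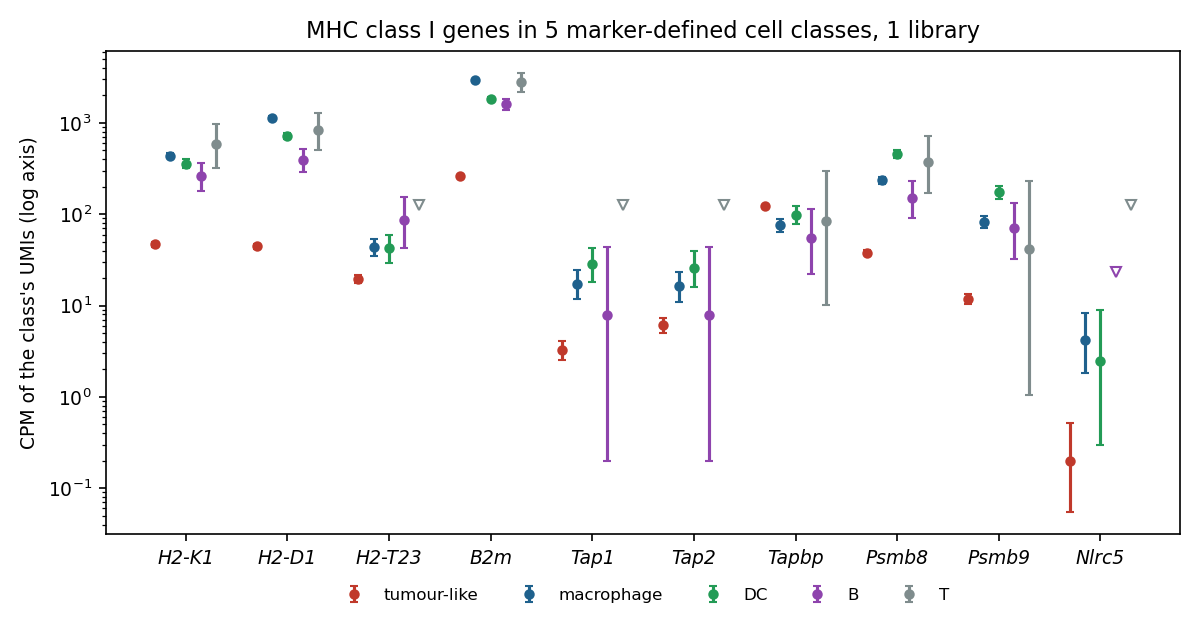
Level of each MHC class I gene (x axis) in CPM of a class's UMIs (log y axis) in tumor-like cells (red), macrophages (blue), DC (green), B cells (purple) and T cells (gray). Bars are exact 95% Poisson intervals, open triangles mark the limit of 3 UMIs where none was counted, and levels should be compared within a gene. H2-K1, H2-D1 and B2m are lowest in tumor-like cells, and the Tapbp interval of tumor-like cells overlaps those of DC and T cells.

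As ratios with exact conditional binomial 95% intervals, macrophages stood over tumor-like cells by 9.33 (8.49 to 10.3) for H2-K1, 25.4 (23.5 to 27.5) for H2-D1 and 11.3 (10.9 to 11.7) for B2m. The same ratio was 6.20 (5.51 to 6.98) for Psmb8, 6.96 (5.66 to 8.55) for Psmb9, 5.33 (3.39 to 8.22) for Tap1, 2.67 (1.74 to 3.98) for Tap2 and 2.24 (1.75 to 2.85) for H2-T23. Tapbp was lower in macrophages, at 0.623 (0.523 to 0.737). Of the 9 members with at least 50 UMIs in the pair of classes, 8 were at least 2-fold higher in macrophages and 0 at least 2-fold lower. Over all 10385 genes with that many UMIs, 11.8% were at least 2-fold higher and 36.7% at least 2-fold lower. The median log2 ratio was 2.63 over the 9 members and -0.57 over all genes. On the log2 scale Tapbp stood at -0.68, close to the median gene.

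DC stood over tumor-like cells by 7.65 (6.68 to 8.74) for H2-K1, 16.1 (14.5 to 17.9) for H2-D1 and 6.99 (6.59 to 7.40) for B2m. Psmb8, at 12.1 (10.6 to 13.7), and Psmb9, at 14.6 (11.8 to 18.1), were next to H2-D1 in this comparison. Tap1 was at 8.79 (5.21 to 14.3), Tap2 at 4.27 (2.55 to 6.83) and H2-T23 at 2.18 (1.49 to 3.09). Tapbp was at 0.804, with an interval (0.634 to 1.01) that takes in equality, and at 1.02 with size factors in place of totals. Again 8 of 9 members were at least 2-fold higher and 0 lower, where 7.71% of 10132 genes were at least 2-fold higher in DC and 41.7% at least 2-fold lower. The median log2 ratio was 2.94 over the members and -0.74 over all genes. Both comparisons share the tumor-like cells.

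**Figure D2:**
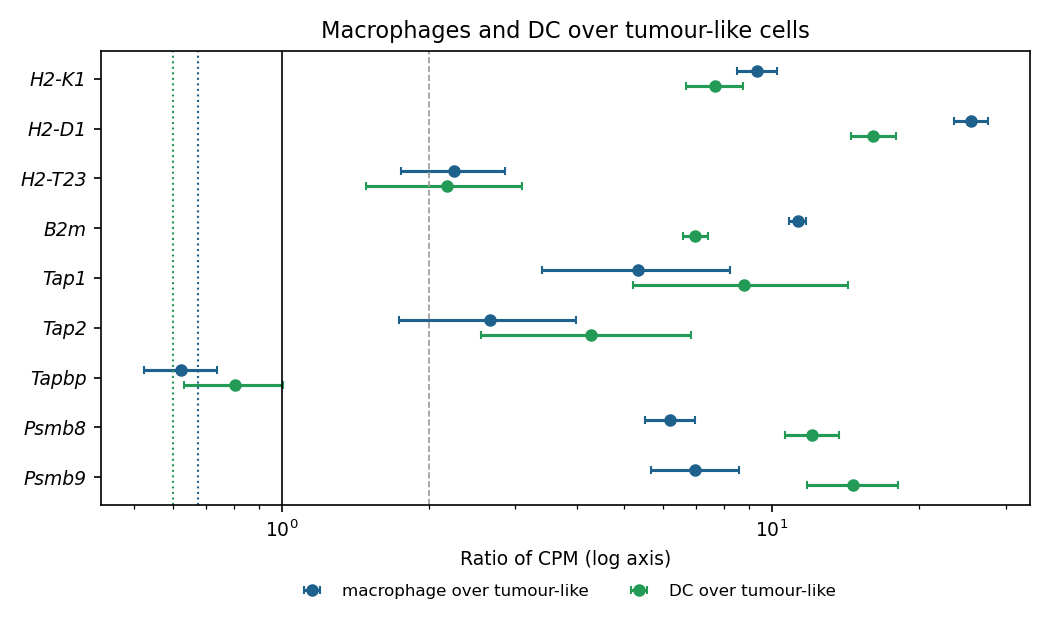
Ratio of CPM (log x axis) for 9 MHC class I genes in macrophages (blue) and DC (green) over tumor-like cells, with exact 95% intervals for counting error. The solid line marks equality, the dashed line 2-fold and the dotted lines the median gene of each comparison. All genes but Tapbp lie above the 2-fold line.

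DC and macrophages differed member by member. Heavy and light chains were lower in DC, with ratios of DC over macrophages of 0.820 (0.715 to 0.939) for H2-K1, 0.632 (0.576 to 0.693) for H2-D1 and 0.619 (0.584 to 0.656) for B2m. Psmb8 and Psmb9 were higher in DC, at 1.95 (1.69 to 2.24) and 2.10 (1.66 to 2.65). Psmb10, the third catalytic subunit of the immunoproteasome and no member of the list, was lower in DC, at 0.607 (0.448 to 0.811). The intervals for H2-T23, Tap1, Tap2 and Tapbp took in equality. By the 2-fold rule 1 member, Psmb9, was higher and 0 lower, with Psmb8 just under the limit. Of 3729 genes, 6.38% were at least 2-fold higher in DC and 16.8% at least 2-fold lower.

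These ratios are per transcript counted. A tumor-like cell yielded about 3 times the UMIs of a macrophage, and per cell the differences were smaller. A mean tumor-like cell held 1.44 UMIs of B2m, a macrophage 5.27 and a DC 2.80. For H2-K1 the means were 0.256, 0.775 and 0.545 UMIs per cell, and for H2-D1 0.245, 2.02 and 1.09. Counted this way, an alternative added after the data were seen, H2-T23 and Tap2 turned over between macrophages and tumor-like cells (ratios of 0.728 and 0.864), and H2-T23 between DC and tumor-like cells (0.605). On this scale 5 members were at least 2-fold higher in macrophages than in tumor-like cells and 1, Tapbp at 0.202, was lower. The median gene moved too, to a log2 ratio of -2.14, so it was itself more than 2-fold lower in macrophages. The share of all genes past 2-fold on this scale is not given here.

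The exchange of proteasome subunits can be read within a class, free of scaling between classes. Psmb8 replaces Psmb5, Psmb9 replaces Psmb6 and Psmb10 replaces Psmb7 when the immunoproteasome forms. Tumor-like cells held 0.270 UMIs (0.249 to 0.292) of Psmb8 per UMI of Psmb5, macrophages 1.42 (1.23 to 1.65) and DC 3.66 (2.93 to 4.61). For Psmb9 over Psmb6 the ratios were 0.0291 (0.0255 to 0.0331), 0.286 (0.238 to 0.342) and 0.765 (0.609 to 0.959). For Psmb10 over Psmb7 they were 0.203 (0.184 to 0.224), 1.08 (0.892 to 1.31) and 0.843 (0.586 to 1.21). In tumor-like cells the constitutive subunit led in each pair. DC stood above macrophages in the first pair and in Psmb9 over Psmb6, and not in Psmb10 over Psmb7.

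**Figure D3:**
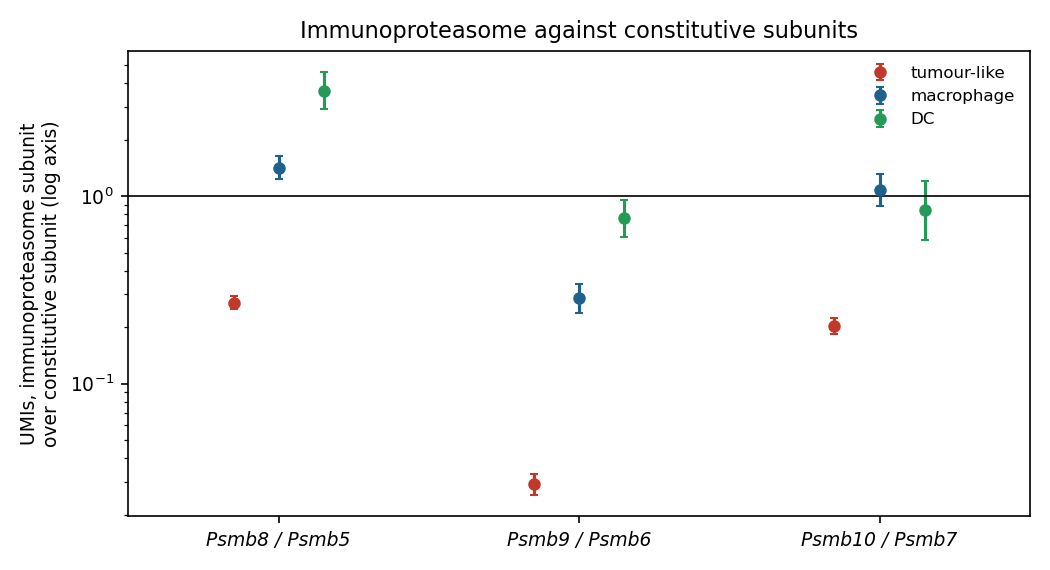
UMIs of each immunoproteasome subunit over the constitutive subunit it replaces (log y axis) in tumor-like cells (red), macrophages (blue) and DC (green), with exact 95% intervals. Tumor-like cells are lowest in every pair, from 0.0291 for Psmb9 over Psmb6 to 0.270 for Psmb8 over Psmb5.

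Other genes of the pathway were taken from fixed lists. Their counts stand against the shares over all genes: 11.8% at least 2-fold higher and 36.7% lower in macrophages than in tumor-like cells. For DC the shares were 7.71% and 41.7%. Among other class I heavy chains, 5 had enough UMIs in macrophages and tumor-like cells, and 3 of them were at least 2-fold higher in macrophages: H2-M3, which presents formylated peptides, at 5.84 (20.5 against 3.50 CPM), Fcgrt, the neonatal Fc receptor, at 4.53 and Hfe, a regulator of iron uptake, at 8.63. Mr1 and H2-T22 were within 2-fold, and H2-T22 shares 26.5% of its windows at the 3' end with H2-T10. H2-Q4, H2-Q6 and H2-Q7 had 3, 3 and 5 UMIs in all 3660 tumor-like cells. H2-Q4 had 26 UMIs in macrophages, and H2-Q7 had 21 in DC. Of 6 genes of peptide loading and trimming with enough UMIs, 0 differed by 2-fold between macrophages and tumor-like cells. The chaperones Calr, Canx and Pdia3 had ratios of 1.39, 1.43 and 1.83. Erap1, of the same list, fell short of 50 UMIs in this pair, with 12 in macrophages and 33 in tumor-like cells. Its ratio was 3.81 (1.79 to 7.58). Of 8 further proteasome genes, only Psmb10 did, at 5.01, while the activator subunits Psme1 and Psme2 both stood at 1.24. In DC, Psmb10 (3.04) and Psme1 (2.70) passed 2-fold, with Psme2 at 1.25.

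Of 16 regulators with enough UMIs, 4 were at least 2-fold higher in macrophages and 1 lower. The higher ones were Irf1 (2.03), Irf2 (3.17), Irf8 (111) and Irf9 (2.72), all interferon regulatory factors. The lower one was Ezh2 (0.380), a histone methyltransferase. Subunits of the RFX and NF-Y complexes were within 2-fold, among them Rfxap at 0.945 and Nfyc at 0.971. In DC, Ciita, the class II counterpart of Nlrc5, was at 52.2 CPM against 1.70 in tumor-like cells. Of the 4 interferon receptor genes, Ifngr1 was at 124 CPM in macrophages, 124 in DC and 9.90 in tumor-like cells, and Ifngr2, its partner chain, at 32.5, 29.8 and 18.4.

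Of 13 interferon-stimulated genes with enough UMIs, 6 were at least 2-fold higher in macrophages than in tumor-like cells and 1 lower. Over all 10385 genes, 11.8% were at least 2-fold higher and 36.7% at least 2-fold lower. The median log2 ratio was 0.98 over the 13 genes and -0.57 over all genes. Ifitm3 was at 2808 CPM against 146 and Bst2 at 226 against 12.6, while Oasl2 was at 7.87 against 47.6. Cxcl10, a chemokine for T cells, was at 5.25 CPM in macrophages and 7.30 in tumor-like cells, and Iigp1 had no UMI in either. Receptors that read class I molecules were found on the leukocyte side. Pirb, an inhibitory receptor, was at 203 CPM in macrophages, 125 in DC and 1.15 in tumor-like cells. Klrd1, the CD94 partner of NKG2A, was at 165 CPM in DC with 133 UMIs. Klrc1, which encodes NKG2A, had 0 UMIs in tumor-like cells, macrophages and DC.

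The next comparison asks whether tumor-like cells differed among themselves. The sparse counts of single cells were first brought to 1000 UMIs each. The 10 members then summed to a mean of 0.602 UMIs in 3610 tumor-like cells, with 58.0% (56.3 to 59.6%) of cells at 0. In 950 macrophages the mean was 4.87 and 2.32% (1.46 to 3.49%) were at 0, and in 416 DC it was 3.995 with 3.61% (2.03 to 5.88%) at 0. The highest tumor-like cell held 14 UMIs, as did the highest macrophage, and 1 DC held 26.

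**Figure D4:**
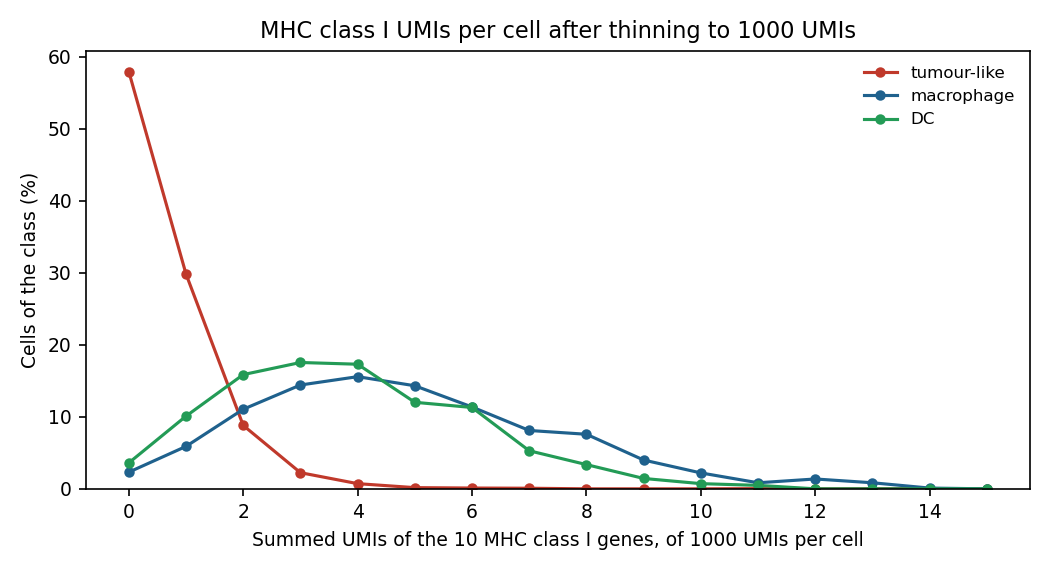
Percent of cells of a class (y axis) by summed UMIs of the 10 MHC class I genes (x axis, up to 15) after each cell was thinned to 1000 UMIs, for tumor-like cells (red), macrophages (blue) and DC (green). Most tumor-like cells hold 0 or 1, and macrophages and DC spread around 3 to 5.

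Tumor-like cells were then split by sets of genes that hold no member, setting the 915 cells with the highest share of a set against the 915 with the lowest. The sets came from an earlier description of the same cells. In the splits by Defb19, Wfdc18, Abhd2, interferon-stimulated and proliferation sets, given below, the low cells held 0 CPM of the set. Cells tied at the same share were taken in the order of their barcodes. Cells rich in Gstm1 and Gstm2, which encode glutathione transferases, had less H2-K1, H2-D1, B2m, Psmb8 and Psmb9 and more H2-T23 and Tapbp. H2-K1 was at 26.2 CPM (21.8 to 31.2) in Gstm-high and 74.7 (67.3 to 82.7) in Gstm-low cells, a ratio of 0.350 (0.284 to 0.430). H2-D1 was at 32.4 and 67.8 CPM, with a ratio of 0.478 (0.393 to 0.581), and B2m at 225 and 343 CPM, with a ratio of 0.656 (0.607 to 0.709). Psmb8 was at 20.9 and 54.9 CPM, with a ratio of 0.382 (0.300 to 0.482), and Psmb9 at 3.56 and 16.8 CPM, with a ratio of 0.212 (0.118 to 0.360).

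H2-T23 and Tapbp went in the opposite direction. H2-T23 was at 26.4 CPM (21.97 to 31.4) in Gstm-high and 12.1 (9.27 to 15.6) in Gstm-low cells, a ratio of 2.17 (1.58 to 3.005). Tapbp was at 161 CPM (150 to 173) and 89.9 (81.7 to 98.6), a ratio of 1.80 (1.60 to 2.02). The intervals for Tap1 and Tap2 took in equality. Of the 8 members with at least 50 UMIs in these cells, 4 were at least 2-fold lower in Gstm-high cells and 1 at least 2-fold higher. Among 8270 genes, 4.12% were at least 2-fold lower and 6.52% at least 2-fold higher. Cells that held a UMI of Slpi, Col1a1, Col1a2 or Mgp had less Gstm1 than the other tumor-like cells (2670 against 5259 CPM). These cells were also left out, as described below. The members' counts were then 3 lower and 0 higher, with H2-D1 at 0.609 and H2-T23 at 1.98. Median depth was alike, 5008 against 4931 UMIs. Macrophage markers summed to 158 CPM in Gstm-high and 229 in Gstm-low cells, and mitochondrial UMIs made up 3.86% and 2.94%. Their part in the result was not tested.

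Another split used Lgals2 and C3, a galectin and a complement protein. Cells rich in them had more H2-K1 (65.7 against 36.8 CPM, ratio 1.79, 1.47 to 2.18), more Psmb8 (49.5 against 23.5 CPM, ratio 2.10, 1.66 to 2.68) and more Psmb9 (17.3 against 8.84 CPM, ratio 1.96, 1.32 to 2.94). B2m was also higher in them (306 against 238 CPM, ratio 1.29, 1.19 to 1.39), and H2-T23 did not differ beyond counting error (ratio 1.01, 0.745 to 1.36). H2-D1 was at 55.1 and 46.5 CPM, with an interval for the ratio (0.983 to 1.43) that took in equality, and Tapbp at 119 and 140 CPM (ratio 0.848, 0.756 to 0.952). The splits were not independent, since 7.87% of the Gstm-high cells were also in the high group for Lgals2 and C3, and 48.1% were in that for Defb19 and Defb36. Cells rich in those 2 beta-defensin genes had less H2-K1 (ratio 0.569, 0.465 to 0.694), Psmb8 (0.688, 0.551 to 0.859) and Psmb9 (0.546, 0.355 to 0.831) and more Tapbp (1.27, 1.13 to 1.42). B2m was slightly lower in them (0.909, 0.840 to 0.985), and the interval for H2-D1 took in equality (0.828, 0.679 to 1.01). Macrophage markers were at 173 CPM in the high and 233 in the low cells of this split, and mitochondrial UMIs at 3.805% and 3.10%, and their part was not tested.

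Interferon-stimulated genes formed a further split, with 22 genes in the set. In tumor-like cells most UMIs of the set came from Ifitm3 (2927) and Ifi27l2a (2149), followed by Oasl2 (952) and Bst2 (251). Usp18, Iigp1 and Cxcl9 had 0. The split therefore rests mainly on Ifitm3 and Ifi27l2a, which were 19.2 and 6.99 times higher in macrophages than in tumor-like cells. High cells had 64.9 CPM of H2-K1 against 40.9 (ratio 1.58, 1.30 to 1.94), 69.4 of H2-D1 against 35.4 (1.96, 1.60 to 2.41), 339 of B2m against 237 (1.43, 1.32 to 1.55), 52.1 of Psmb8 against 25.1 (2.08, 1.63 to 2.66) and 19.1 of Psmb9 against 7.13 (2.68, 1.73 to 4.29). H2-T23 (0.859, 0.638 to 1.16) and Tapbp (0.942, 0.835 to 1.06) did not differ beyond counting error. By the 2-fold rule 2 of 8 members were higher and 0 lower, where 0.82% of 7923 genes were higher and 0.467% lower. Without the cells that held a UMI of Slpi, Col1a1, Col1a2 or Mgp, 1 member (Psmb8) was 2-fold higher. Psmb9 was then at 1.99, H2-K1 at 1.25 and B2m at 1.19. Macrophage markers were at 241 CPM in high and 181 in low cells, and median depth was 4726 and 3934 UMIs. The part of either in these differences was not tested. In the split by the 7 proliferation genes in the table such as Top2a, the ratios of all members with at least 50 UMIs lay between 0.712 and 1.24, and each interval took in 1. The closest was B2m, at 251.1 against 270.03 CPM (ratio 0.930, 0.863 to 1.002). In the split by Wfdc18, Gng13 and Sncg, the members with an interval that left out 1 were H2-T23 (0.692, 0.511 to 0.935), Tap2 (0.590, 0.350 to 0.980) and Tapbp (0.864, 0.770 to 0.969). In the split by Abhd2, Pam and Spry2 they were Psmb8 (0.749, 0.595 to 0.941) and Tap1 (2.11, 1.02 to 4.63, 24 against 12 UMIs). H2-K1, H2-D1 and B2m had intervals that took in 1 in both.

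**Figure D5:**
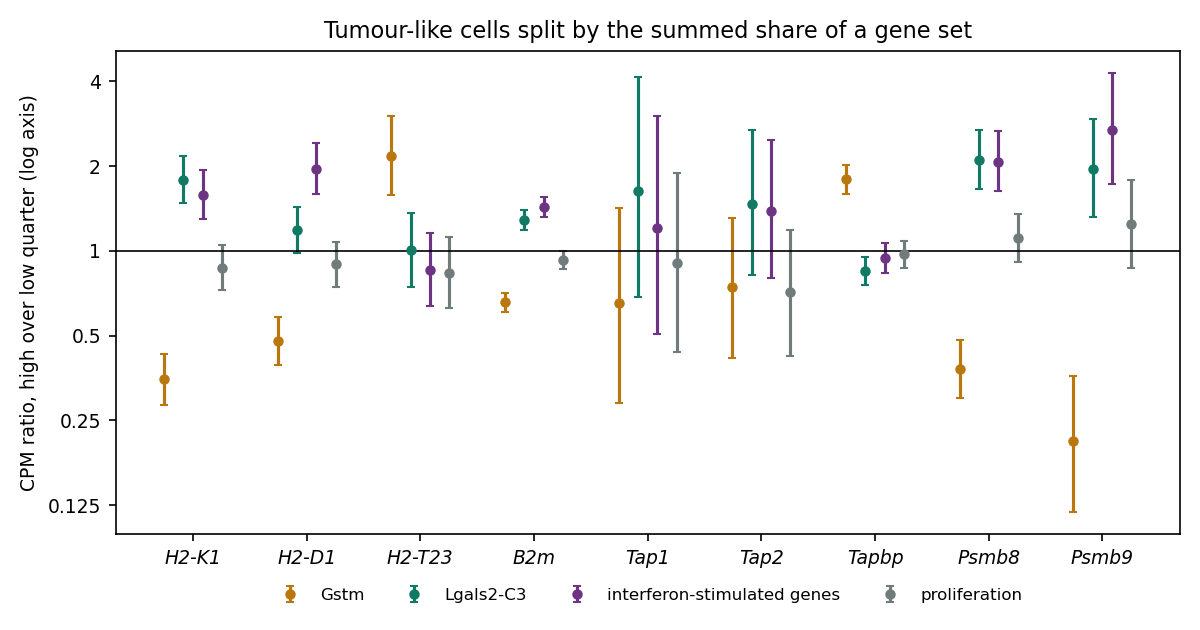
Ratio of CPM between the 915 tumor-like cells with the highest and the 915 with the lowest share of a gene set (log y axis) for 9 MHC class I genes, with exact 95% intervals, for the Gstm (brown), Lgals2 and C3 (green), interferon-stimulated (purple) and proliferation (gray) sets. H2-K1, H2-D1, B2m, Psmb8 and Psmb9 lie below 1 in the Gstm split, H2-T23 and Tapbp above it.

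By the summed members after thinning, the 10 genes outside the lists most like them over 3610 tumor-like cells were Slpi, Lgals3, Crip1, Mt1, C3, Dcn, Aebp1, Abcb1b, H2-Eb1 and Nkain4, with Pearson correlations from 0.147 down to 0.0729. These correlations are weak, over cells of 1 library that share free RNA, and are given as a description. In 950 macrophages they were Wfdc17, Fth1 (the ferritin heavy chain), Folr2, Ctsb, Ctsd, Hmox1 (heme oxygenase), Sepp1, Pf4, Lyz2 and Ninj1, from 0.221 down to 0.164. Between members, H2-K1 and B2m had a correlation of 0.116 in tumor-like cells, and H2-D1 and B2m of 0.118 in macrophages and 0.182 in DC.

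Slpi and Dcn are also transcribed by host stromal and mesothelial cells. Tumor-like cells with a UMI of Slpi, Col1a1, Col1a2 or Mgp were therefore set apart, a choice made after the data were seen. Dcn was not used for this. It was at 330 CPM in the cells without such a UMI and at 467 in those with one. In 47 tumor-like cells with at least 3 UMIs of Col1a1, Col1a2 and Mgp, H2-K1 was at 172 CPM, H2-D1 at 249 and B2m at 977. In the 2962 cells with no UMI of Slpi, Col1a1, Col1a2 or Mgp they were at 40.8, 40.8 and 245 CPM. The ratios were 4.204 (3.001 to 5.75), 6.12 (4.62 to 7.96) and 3.98 (3.48 to 4.54). Psmb8 (1.27, 0.632 to 2.30) and Tapbp (1.06, 0.730 to 1.499) did not differ beyond counting error. In these 47 cells the mesothelial gene Msln was at 135 CPM, against 6.48 in the 2962. Gstm1 was at 1476 CPM in the 47 cells and at 5259 in the 2962. With the 698 cells that held any of these UMIs left out, the Gstm ratios were 0.380 for H2-K1, 0.609 for H2-D1, 0.742 for B2m, 0.372 for Psmb8, 0.229 for Psmb9, 1.98 for H2-T23 and 1.76 for Tapbp. The H2-D1 ratio in the Lgals2 and C3 split went from 1.18 to 0.888, and its interferon ratio from 1.96 to 1.55. The macrophage ratios over the 2962 cells were 10.7 for H2-K1, 27.9 for H2-D1 and 12.1 for B2m. Slpi was the gene most correlated with the summed members in tumor-like cells. Leaving out cells with Slpi therefore favors a lower tumor-like level and higher macrophage ratios, so no conclusion is drawn from this rise.

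Macrophages also differed among themselves. The 269 with the highest share of Pf4, Arg1 and Saa3, set against the 269 with the lowest, had more H2-K1 (506 against 348 CPM, ratio 1.46, 1.18 to 1.81), H2-D1 (1133 against 854 CPM, ratio 1.33, 1.16 to 1.52) and B2m (3331 against 2411 CPM, ratio 1.38, 1.28 to 1.497). Psmb9 was lower in them (52.9 against 122 CPM, ratio 0.434, 0.264 to 0.702), and Psmb8 did not differ beyond counting error (203 against 233 CPM, ratio 0.869, 0.653 to 1.16). Their median depth was 1994 against 1365 UMIs.

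DC were divided by marker genes. The 33 cells with Xcr1, Clec9a or Cadm1 transcripts, markers of the type that cross-presents, had Psmb9 at 372 CPM (249 to 535), and the 141 with Cd209a, Clec10a, Mgl2 or Sirpa transcripts and none of the first 3 had 121 (79.2 to 178). The ratio was 3.07 (1.75 to 5.43) for Psmb9, 1.66 (1.14 to 2.38) for Psmb8, 0.870 (0.525 to 1.39) for H2-K1 and 0.610 (0.420 to 0.867) for H2-D1. Median depth was 2208 UMIs in the 33 cells and 1429 in the 141, and its part in these differences was not tested. The 10 cells with at least 2 UMIs of Ccr7, Fscn1 and Ccl22, markers of migratory DC, had H2-K1 at 1223 CPM (737 to 1911), B2m at 3992 (3061 to 5118) and Psmb8 at 1352 (837 to 2067). Against the 139 cells of the Cd209a type that are not among them, the ratios were 3.49 (1.99 to 5.84) for H2-K1, 2.27 (1.70 to 2.97) for B2m and 3.66 (2.15 to 5.99) for Psmb8. Of the T cells, 8 had Cd8a or Cd8b1 transcripts, with 31 UMIs of B2m, and none had Cd4.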

How the data were processed

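UMI counts per gene and barcode were deposited by the authors for every barcode of the library (737280 barcodes, 35733776 UMIs), made with a 10x Genomics assay per the labels. Aligner, counter, build: not given in the sources used here. Cells were barcodes of 500 UMIs or more that held 200 genes or more and no more than 15% mitochondrial UMIs (6442, median 3300 UMIs, range 500 to 19947). Scrublet (scanpy 1.11.5) marked 87 (1.35%) as doublets, which stayed in and were removed as an alternative. Classes followed sums of marker UMIs: keratin set (Krt8, Krt18, Krt19, Wt1, Upk3b) of 3 or more with C1q genes of at most 1 for tumor-like, C1q genes of 3 or more with keratin set of at most 1 for macrophages, Cd79a and Cd79b of 2 or more for B, Cd3 genes of 2 or more for T, and class II genes of 1% or more with C1q of at most 1 and no Cd79 for DC. Counts were summed per class and divided by the class total. Intervals (exact Poisson, Clopper-Pearson and conditional binomial, at 95%) cover counting error only. A count of 0 was read as up to 3 counts. Ratios were tested on simulated data. Positions came from the annotation by gene identifier, and promoter sequences from RefSeq by symbol.

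Samples other than the ascites library were not used: the bulk table's 8 columns could not be placed, so the planned edgeR comparison was not run. The members and lists were chosen with earlier results of these data known. Genes named are the members, genes of the fixed lists with at least 50 UMIs over the classes, and the 10 other genes most correlated with the summed members in tumor-like cells and the 10 in macrophages, among genes with a UMI in at least 5% of thinned cells. Low-count list genes (H2-Q4, H2-Q6, H2-Q7, Klrc1, Iigp1) and the stromal genes were named after their values were seen. Alternatives were other cell filters, doublets or overlapping cells left out, stricter classes, equal weight per cell, size factors, subtraction of free RNA, other split sizes, and 2 added after the data were seen. These 2 were UMIs per cell, and tumor-like cells with a UMI of Slpi, Col1a1, Col1a2 or Mgp left out. Python 3.11.15, numpy 2.4.6, scipy 1.17.1, pandas 2.3.3 and matplotlib 3.10.9 were used.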

Additional observations from a re-analysis of the deposited data

Results flagged for a closer look

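Class I transcripts were also present in barcodes that the comparisons leave out. The 1089 cells that met no class rule had B2m at 797 CPM (759 to 836), between tumor-like cells and DC, with macrophage markers summing to 5573 CPM and hemoglobin genes to 22807 CPM. The 474 barcodes with fewer than 200 genes, in which hemoglobin made up 83.4% of UMIs, had B2m at 65.6 CPM (44.9 to 92.6) and no UMI of H2-T23, Tap2, Psmb9 or Nlrc5. The 519 barcodes with over 15% mitochondrial UMIs had B2m at 335 CPM (294 to 381) and Tapbp at 361 CPM (318 to 408), where kept tumor-like cells had Tapbp at 122. Each was noted because signal stood above the limit that a count of 0 allows, and the reasons were not tested.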

How the results depend on the processing

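With UMIs per cell in place of CPM, 5 members were at least 2-fold higher in macrophages than in tumor-like cells and 1 lower, and 5 were higher and 1 lower in DC. Ratios that turned over were H2-T23 (0.728 in macrophages, 0.605 in DC) and Tap2 (0.864 in macrophages) against tumor-like cells, and Psmb8 in B cells (0.896). This scale moves the median gene, over genes with at least 10 UMIs in each class, to a log2 ratio of -2.14 in macrophages and -2.50 in DC. Over the same genes, size factors moved it from -0.52 to -0.20 in macrophages and from -0.65 to -0.30 in DC, with the counts of members past 2-fold at 8 and 0 in both. They took the Tapbp ratio of DC over tumor-like cells from 0.804 to 1.02. Without the cells that held a UMI of Slpi, Col1a1, Col1a2 or Mgp, 3 members were 2-fold lower and 0 higher in Gstm-high cells. In the interferon split 1 was then higher. At 1.5-fold, 1 member (Tapbp) was lower in macrophages than in tumor-like cells, and DC had 4 members higher and 2 lower than macrophages. No share of all genes past the limit is given for these alternatives, so their counts of members have no background. The single member at least 2-fold higher in DC than in macrophages became 2 with at least 1000 UMIs per cell, with doublets removed, with overlapping cells left out and with either subtraction of free RNA, 3 with stricter classes and 0 per cell. Over these alternatives the macrophage ratio over tumor-like cells ranged from 3.02 to 11.6 for H2-K1, 8.25 to 33.8 for H2-D1 and 3.66 to 14.0 for B2m, and the lowest value of each was the one per cell. No paired analysis was possible because the ascites were 1 library and the columns of the bulk table carry no sample names. For the same reason DESeq2, no filter, a replicate block and leaving out replicates were not run. Depth limits Nlrc5, Tap1 and Tap2, and all B and T cell values.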
